A study of Drosophila melanogaster with 3 samples.

Results

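The insect cuticle is a layered extracellular coat of chitin and protein that the epidermis secretes anew at each moult. Most of its structural proteins carry the Rebers-Riddiford (RR) consensus, a stretch that binds chitin, and different genes of the family are used at different stages and in different parts of the body. In *Drosophila* the symbols of these genes start with *Cpr* for cuticular proteins with the RR consensus, *Lcp* for larval cuticle proteins and *Ccp84A* for a group of cuticle genes within the *Antennapedia* complex. Here, the 94 genes with such a symbol, of 17896 genes counted, were examined in larvae that lack cyclin C. They were chosen by symbol alone, and the cytochrome P450 reductase gene *Cpr* was left out.

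RNA was measured in 3 libraries of whole wandering larvae homozygous for *CycC* Y5, an allele that abolishes cyclin C function and lies on a chromosome that also carries FRT82B. Each library was made from a pool of 10 larvae of the third instar, and the pools are the replicates. The line was kept over a balancer marked with *Tb*, by which homozygous larvae can be told from their siblings, and had been outcrossed to w1118. Libraries of control and *Cdk8* mutant larvae were not used here. Every level below is thus one of *CycC* mutant larvae, and the tests compare libraries and not genotypes. The age and sex of the larvae in each pool are not recorded.

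The libraries held 10222639, 10179342 and 12146443 counts, and levels are given as CPM, the count scaled to these totals. Library 3 stood apart from the others in genes of fat body, muscle and midgut. All 6 genes of a list for fat body and serum proteins and all 4 of a list for muscle were highest there, with median log2 differences from library 1 of 1.12 and 1.53 against 0.0040 over all 10199 features tested. Of 16 Jonah protease genes of the midgut, 14 were highest there too. Over all features, 37.4% were highest in library 3 and 31.9% in library 1. All 3 hemocyte genes were highest in library 1. On total counts, their summed levels were 220.5 CPM there and 178 and 159 CPM in libraries 2 and 3. With the scaling given below, the median put library 2 lower than library 3. The median log2 difference of the 3 hemocyte genes from library 1 was -0.38 in library 2 and -0.18 in library 3. Their median ratio of the highest to the lowest library was 1.347, against 1.215 over all features. Library 2 was lowest for the salivary glue genes, with a summed level of 2828 CPM against 6435 CPM in library 1 and 3989 CPM in library 3. Of these 6 genes *Sgs4*, which lies inside another gene, was listed at 0. For these differences between libraries, counts were scaled with the trimmed mean of M values (TMM). On total counts, the median over all features of library 3 minus library 1 would be -0.22. Markers of fat body, muscle, midgut, salivary gland, hemocytes and neurons were counted in every library. Of the neuronal markers *Syt1* had 1335, 1326 and 2243 counts, and *elav*, which shares 98.6% of its span with other genes, had at most 1 in a library.

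Cuticle genes took 2.35% of all counts in library 1, where the 95% Wilson interval ran from 2.34% to 2.36%. Their share was 2.36% (2.35% to 2.37%) for library 2 and 2.645% (2.636% to 2.654%) for library 3. These intervals cover counting error only. The summed level was 24509 ± 1682 CPM (SD, n = 3). With TMM library sizes, the sums were 22354, 21948 and 29564 CPM. The family total therefore separated library 3 from the other libraries on both scales, by more than libraries 1 and 2 differed from each other. In whole larvae, fewer epidermal cells and less RNA per cell cannot be told apart. The distribution among members was uneven. Of the 94 genes, 7 had a mean level of at least 100 CPM, 24 of at least 10 CPM and 44 of at least 1 CPM. The plot of levels by gene shows this fall.

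**Figure D1:**
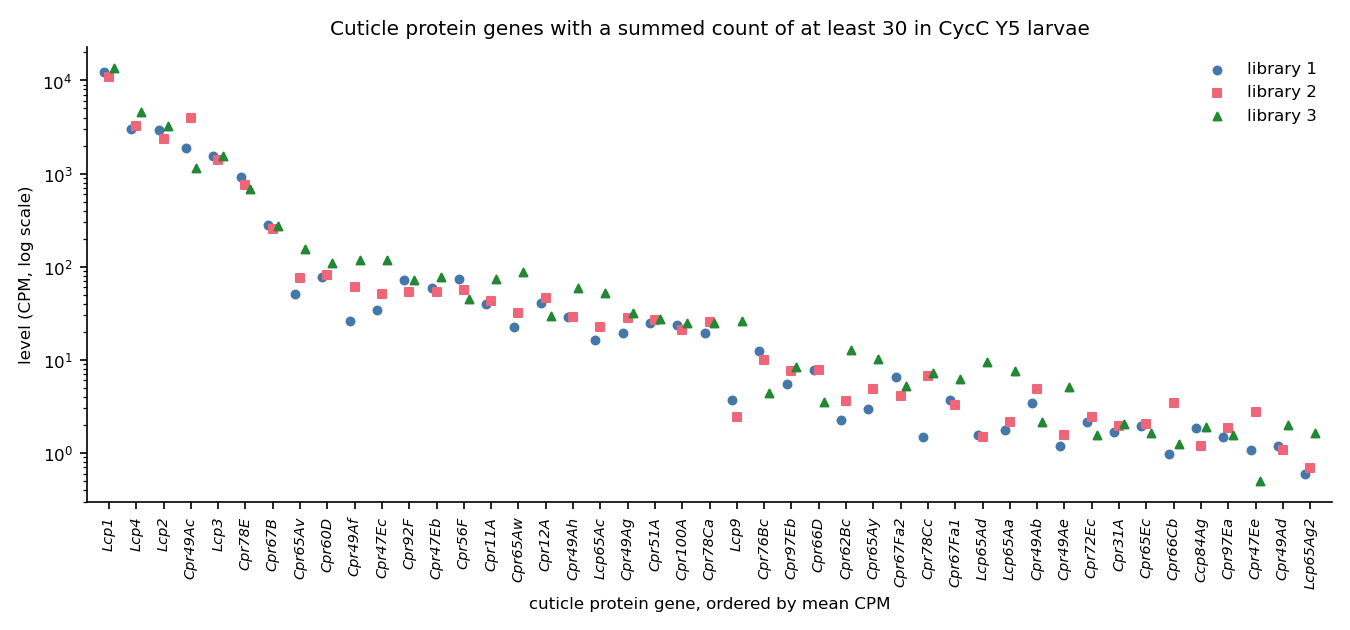
Level of each cuticle protein gene with a summed count of at least 30, in CPM on a log scale, with 1 point per library of *CycC* Y5 larvae and genes ordered by mean level. *Lcp1* lies highest in every library, at 10838 CPM or more, and green triangles (library 3) lie highest for most genes of intermediate level, such as *Cpr65Av* (51.2, 75.2 and 155 CPM in libraries 1, 2 and 3).

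Not every member could be measured. In all, 80 members had a count in at least 1 library, and 14 were listed at 0 in every library. Of the latter, 8 lie inside the span of another gene: *Cpr57A*, *Cpr64Aa*, *Cpr64Ab*, *Cpr64Ac*, *Cpr64Ad*, *Lcp65Ag3*, *Cpr67Fb* and *Cpr11B*. In the whole table, 3518 of 3520 genes that lie inside another were listed at 0, against 14.6% of the 9227 genes with no overlap. A 0 at these 8 members is therefore no measure of their expression. A further 7 members overlap another gene in part. Among them *Cpr65Au*, also at 0, shares 96.0% of its span with *asRNA:CR46005*, and its 0 is no safe measure either. Among the 6 other members at 0, *Lcp65Ab1*, *Cpr65Ax1* and *Cpr65Ax2* belong to pairs of duplicated genes, *Lcp65Ab1* with *Lcp65Ab2* and *Cpr65Ax1* with *Cpr65Ax2*. Each pair has coding sequences of one length, 312 bp for *Lcp65Ab1* and *Lcp65Ab2* and 306 bp for *Cpr65Ax1* and *Cpr65Ax2*. How reads that match both copies were counted is not given in the sources used here, and the levels of these genes are uncertain. Where reads of a gene could be counted, a count of 0 allows up to 3 counts, or 0.293, 0.295 and 0.247 CPM in libraries 1, 2 and 3. Of the 94 members, 45 had a summed count of at least 30 and entered the tests.

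The most abundant members were the larval cuticle protein genes of cluster 44C, whose products are major proteins of the cuticle of the last larval instar. *Lcp1* (FBgn0002531) to *Lcp4* lie within 8.38 kb on chromosome arm 2R of BDGP6 (from 8430115 to 8438495) together with the pseudogene *Lcp1Psi*. *Lcp1* was counted at 12189, 10838 and 13719 CPM in libraries 1, 2 and 3, a mean of 12249 ± 1442 CPM (SD, n = 3). By summed count it ranked 5 among all genes and transposon families. *Lcp4* had 3018, 3217 and 4571 CPM, and *Lcp2* had 2957, 2368 and 3273 CPM. *Lcp3* had the narrowest range of the 4, with 1552, 1399 and 1561 CPM. *Lcp1* to *Lcp4* made up 83.9%, 75.6% and 87.4% of the cuticle gene counts in libraries 1, 2 and 3, and *Lcp1* alone made up 51.9%, 46.0% and 51.9%. The pseudogene *Lcp1Psi* had 4, 3 and 4 counts. On the TMM scale each of the 4 genes was highest in library 3, and the ratio of the highest to the lowest library was 1.52 for *Lcp1*, 1.66 for *Lcp2*, 1.34 for *Lcp3* and 1.78 for *Lcp4*. Reads of these related genes can have been shared, and their separate levels carry that uncertainty.

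Levels of different genes were compared per kb of the listed gene span, introns included. *Lcp1* led with 10849 ± 1277 CPM per kb (SD, n = 3), followed by *Lcp4* with 4243 ± 995 CPM per kb (SD, n = 3) and *Lcp2* with 2898 ± 464 CPM per kb (SD, n = 3). *Lcp3* had 1913 ± 116 CPM per kb (SD, n = 3) and *Cpr78E*, on 3L, had 1486 ± 237 CPM per kb (SD, n = 3). *Lcp1* lay above *Lcp4* by more than their SDs together, and *Lcp3* lay above *Cpr78E* by more than theirs. *Lcp4* and *Lcp2* differed by less than the sum of their SDs, which include differences shared between libraries. Within each library, *Lcp4* was the higher, with 3555, 3789 and 5384 CPM per kb against 2990, 2394 and 3309 CPM per kb. The remaining members of the 10 highest were *Cpr49Ac* (684 ± 433 CPM per kb, SD, n = 3), *Cpr67B* (195 ± 9.78), *Cpr65Av* (125 ± 72.3), *Cpr60D* (122 ± 23.4) and *Cpr65Aw* (93.4 ± 70.0). The mean levels of *Cpr65Av*, *Cpr60D* and *Cpr65Aw* differed by less than the SD of *Cpr65Av*. *Cpr65Av* nevertheless lay above *Cpr65Aw* in every library, whereas *Cpr60D* lay above both in libraries 1 and 2 and below both in library 3. With coding length in place of the span, 9 of these 10 genes were among the 10 highest, and *Cpr49Ac*, whose span of 3392 bp holds 1062 bp of coding sequence, was at 2185 CPM per coding kb.

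*Cpr49Ac* (2R, from 12386666 to 12390057) was the one abundant member that was highest in library 2. It had 19082, 40323 and 13776 counts in libraries 1, 2 and 3, which is 1867, 3961 and 1134 CPM. Its level in library 2 was 2.91 times that in library 3 on the TMM scale. Without *Lcp1* to *Lcp4*, the summed level of the family was 3779, 5760 and 3326 CPM, so that this remainder was highest in library 2 and *Cpr49Ac* made up most of it there. Its neighbours in cluster 49A, which holds 8 members within 38.5 kb, mostly had another profile. *Cpr49Af* had 26.3, 60.6 and 118 CPM, *Cpr49Ah* had 28.9, 28.7 and 59.2 CPM and *Cpr49Ae* had 1.17, 1.57 and 5.10 CPM, each highest in library 3. *Cpr49Ab*, with 35, 50 and 26 counts, was also highest in library 2, but did not pass the test over the 3 libraries (adjusted p = 0.053, chi-square test of homogeneity with Benjamini-Hochberg adjustment over all features).

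The next question was whether cuticle genes differed between the libraries by more than counting noise. Of the 45 members tested, 37 (82.2%) varied in a chi-square test across the 3 libraries, against 39.4% of all 10199 features (adjusted p under the threshold of 0.05). The median summed count was 756 for the members and 798 for all features tested. Because abundant genes pass this test on small differences, a size was set beside it: in 20 of 45 members the highest library was at least 2 times the lowest, on the scale of log2(CPM + 0.5) with TMM library sizes, against 5.64% of all features. The median of this ratio was 1.78 for the members and 1.21 for all features tested. The biological coefficient of variation from edgeR, which leaves out counting noise, had a median of 0.264 over the members and 0.153 over all features. Without library 3, 18 of 45 members varied, against 16.3% of all features, and 5 differed at least 2-fold, against 1.51% of all features. The share of members past both limits was thus lower without library 3, and remained above that of all features.

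The direction was shared by most members. Library 3 was the highest for 33 of 45 members (73.3%), against 37.4% of all features. Library 2 was highest for 7 members, against 30.7% of all features, and library 1 for 5, against 31.9%. Of the 20 members with a ratio of at least 2, 16 were highest in library 3 (3.54% of all features had this ratio and direction), 3 in library 2 (1.7%) and 1 in library 1 (0.402%). In pairs of libraries, 28 members were higher and 5 lower in library 3 than in library 1, with 17.4% and 14.5% of all features called in these directions. Against library 2, library 3 had 27 members higher and 7 lower (17% and 13% of all features). Libraries 1 and 2 differed in fewer members, with 11 higher and 7 lower in library 2 (8.33% and 7.95% of all features). The median log2 difference of library 3 from library 1 was 0.55 over the members and that of library 2 was 0.078, against 0.0040 and 0.0022 over all features. The fat body and serum list, summed at 30478, 26299 and 59527 CPM, and the muscle list, at 3840, 4596 and 8624 CPM, were highest in the same library, and their part in these differences was not tested.

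**Figure D2:**
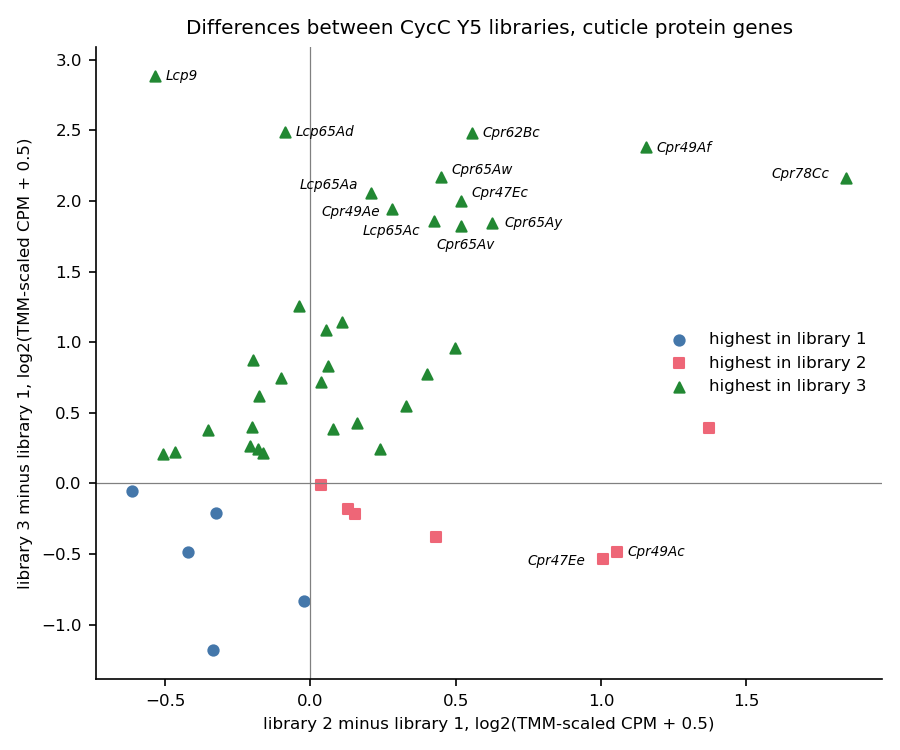
Difference of library 2 from library 1 (horizontal axis) and of library 3 from library 1 (vertical axis) for the 45 cuticle protein genes tested, as log2(TMM-scaled CPM + 0.5). Each point is a gene, with the colour and shape of the library in which it was highest, and genes with a ratio of highest to lowest library of at least 2.7 are named. The green group at the top holds genes such as *Lcp9* (2.89) and *Lcp65Ad* (2.49 on the vertical axis), and *Cpr49Ac* and *Cpr47Ee* lie apart at the lower right.

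The largest ratio was that of *Lcp9* (2R, from 24779979 to 24780428), a gene for a larval cuticle protein. It had 38, 25 and 319 counts, or 3.72, 2.46 and 26.3 CPM, in libraries 1, 2 and 3. Library 3 lay far above the others, which were close to each other, and the ratio of highest to lowest was 10.7. A second gene, *asRNA:CR44067*, covers 2.00% of the span of *Lcp9*. *Lcp65Ad* had 1.57, 1.47 and 9.55 CPM (ratio 5.97) and *Cpr62Bc* had 2.25, 3.63 and 12.8 CPM (ratio 5.59). *Cpr47Ec* had 352, 516 and 1437 counts, or 34.4, 50.7 and 118 CPM (ratio 3.99). *Cpr49Af*, described above, had a ratio of 5.20. All of these were highest in library 3, and each passed the test (adjusted p of at most 3.1e-29 in the chi-square test with Benjamini-Hochberg adjustment).

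*Cpr78Cc* (3L) had another profile. Its counts were 15, 69 and 87, which is 1.47, 6.78 and 7.16 CPM in libraries 1, 2 and 3. It was low in library 1 alone, and its log2 difference from library 1 was 1.84 in library 2 and 2.16 in library 3. *Edg78E*, which is no member by its symbol, is an RR gene known as ecdysone-dependent and used in the pupal cuticle. Its counts were 15, 48 and 58 (adjusted p = 2.5e-05), and it was also lowest in library 1. The members lower in library 3 than in library 1 were *Cpr49Ac*, *Cpr78E*, *Cpr56F*, *Cpr76Bc* and *Cpr66D*. *Cpr76Bc* had 128, 102 and 54 counts (adjusted p = 2.5e-07 for this pair) and *Cpr66D* had 80, 80 and 43 (adjusted p = 0.0032). *Cpr56F*, which shares 28.1% of its span with another gene, had 759, 576 and 546 counts. *Cpr47Ee* (11, 28 and 6 counts) and *Cpr66Cb* (10, 35 and 15 counts) were the other members with a ratio of at least 2 that were highest in library 2.

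Several members varied little. *Cpr67B* had 2844, 2582 and 3347 counts, or 278, 254 and 276 CPM, and *Cpr78E* had 925, 754 and 680 CPM. Both passed the test at these depths. On the TMM scale, however, the ratio of the highest to the lowest library was 1.30 for *Cpr67B* and 1.25 for *Cpr78E*, close to the median of 1.21 over all features. *Cpr51A* had 24.7, 26.6 and 27.5 CPM (ratio 1.30), with 36.3% of its span shared with another gene, and *Cpr100A* had 23.9, 21.0 and 24.5 CPM (ratio 1.39). At lower depth, no variation beyond counting noise was detectable for *Cpr65Ec*, *Cpr97Ea*, *Cpr72Ec* and *Cpr31A*, whose adjusted p ranged from 0.60 to 0.99 in the chi-square test.

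By position, 72 members fell into 14 clusters, in which neighbours lie less than 50 kb apart, and 22 stood alone. The arms 3L and 2R held 46 and 27 members, 3R held 12, 2L held 5 and X held 4. The largest cluster was that at 65A on 3L (from 6130386 to 6161589), with 18 members in 31.2 kb, among them genes for larval cuticle proteins. It was summed at 97.4, 140 and 325 CPM in libraries 1, 2 and 3. Only 7 of its genes had a summed count of at least 30, and all 7 varied, differed at least 2-fold and were highest in library 3, against 39.4% of all features that varied and 3.54% that had this ratio and direction. *Cpr65Av* had 523, 765 and 1882 counts (51.2, 75.2 and 155 CPM), *Cpr65Aw* had 22.7, 31.8 and 88.7 CPM and *Lcp65Ac* had 16.3, 22.6 and 51.7 CPM. These genes lie side by side with *Lcp65Ad*. *Lcp65Aa* (1.76, 2.16 and 7.66 CPM) and *Cpr65Ay* (2.94, 4.91 and 10.1 CPM) lie beyond the duplicated genes that were at or near 0. *Lcp65Ag2* had 6, 7 and 20 counts and *Lcp65Ag1* had 0, 0 and 2 counts, and *Lcp65Ag1*, *Lcp65Ag2* and *Lcp65Ag3* have the same coding length of 315 bp. *Lcp65Af* had 2, 5 and 3 counts and *Lcp65Ae* had 1, 1 and 3 counts.

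**Figure D3:**
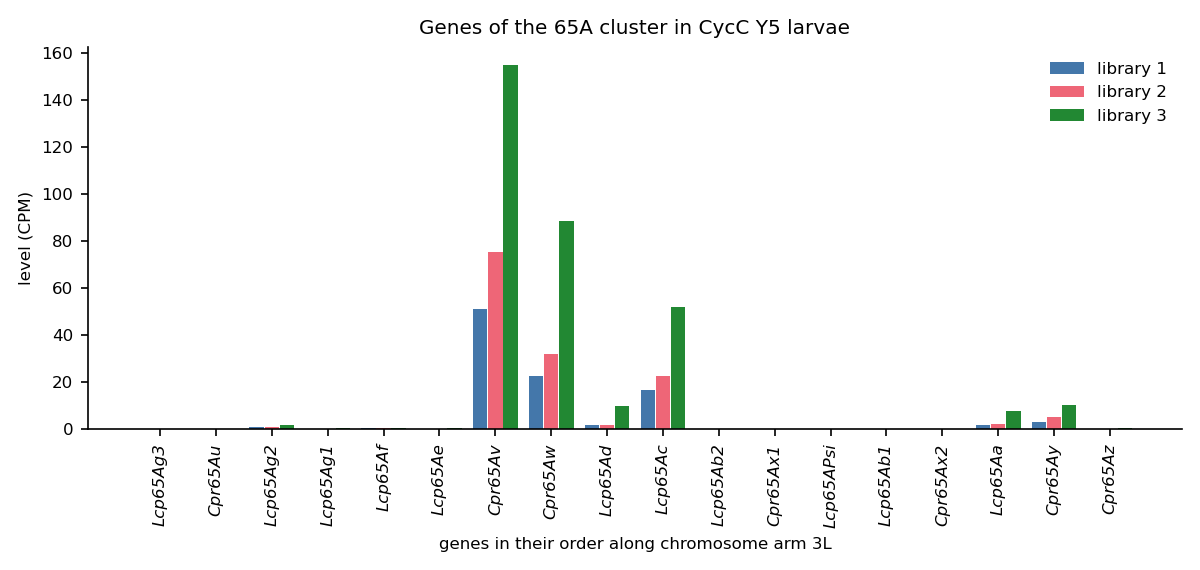
Level in CPM of the 18 genes of the 65A cluster in the 3 libraries of *CycC* Y5 larvae, as bars from 0, with genes in their order along chromosome arm 3L. The green bars (library 3) are the tallest at *Cpr65Av*, *Cpr65Aw*, *Lcp65Ad*, *Lcp65Ac*, *Lcp65Aa* and *Cpr65Ay*, and the block from *Lcp65Ab2* to *Cpr65Ax2* holds a single count in all libraries together.

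The clusters that hold *Lcp1* and *Cpr49Ac* had higher mean sums, of 20221 and 2462 CPM, than the cluster of *Cpr65Av*, with 187 CPM. The remaining clusters were expressed at lower levels than these. The 47E cluster on 2R (7 members) was summed at 95.1, 107 and 197 CPM, nearly all from *Cpr47Eb* (58.7, 53.0 and 76.9 CPM) and *Cpr47Ec*, while *Cpr47Ea*, *Cpr47Ed*, *Cpr47Ef* and *Cpr47Eg* had at most 11 counts in a library. The *Ccp84A* cluster on 3R (7 members in 18.2 kb) was close to the limit of detection. Its summed level was 4.70, 2.36 and 3.62 CPM, and *Ccp84Ag*, the gene with the most counts, had 19, 12 and 23. It was the only gene of the cluster tested, and variation beyond counting noise was not detectable (adjusted p = 0.29). *Ccp84Aa* had 10, 2 and 3 counts, *Ccp84Ab* had 14, 5 and 6, and *Ccp84Ac*, *Ccp84Ae* and *Ccp84Af* had at most 2 in a library. The 64A cluster could not be measured, because its 4 genes lie inside *CG43367*.

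Many members also share a gene structure that the symbol does not use. For genes with several transcripts, the shortest first coding exon and the fewest coding exons were taken. In 39 of the 92 protein-coding members (42.4%), the annotation gives a first coding exon of exactly 12 bp, so that the start codon and 3 further codons are split by an intron from the rest of the protein. This length occurs in 162 of 13985 protein-coding genes of the table (1.16%). Of the members, 62 have 2 coding exons (67.4%, against 23.2% of all protein-coding genes), and the median coding length is 473 bp against 1182 bp. By cluster, the 12 bp exon is present in every coding member of 4 clusters, in some members of 6 and in none of 4. First coding exons of other short lengths, such as 9 bp in *Cpr65Ay* and 15 bp in *Cpr62Bc*, are not counted here. The 12 bp exon is found in all 7 *Ccp84A* genes and in *Lcp1* to *Lcp4*, but in 0 of 17 protein-coding genes of the 65A cluster. Of 6 listed RR genes with other symbols, *Edg78E*, *Edg84A*, *Acp65Aa* and *Pcp* have the 12 bp exon as well. The first coding exon is 9 bp in *Crys* and 1020 bp in *resilin*. Members with the 12 bp exon gave 21396 CPM and the other protein-coding members 3112 CPM, as mean summed levels. Without *Lcp1* to *Lcp4*, the members with the 12 bp exon gave 1176 CPM. Of the tested members with the 12 bp exon 8 of 21 differed at least 2-fold between libraries, against 5.64% of all features. Of those with a first coding exon of another length, 12 of 24 did. The difference between these shares was not tested.

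RR genes with other symbols were at or near 0 with one exception. Of 6 listed genes only *Edg78E* had a summed count of at least 30. *Edg84A*, another ecdysone-dependent cuticle gene, and *Crys* were listed at 0, *Acp65Aa*, named for the adult cuticle, had 1, 3 and 12 counts, and *resilin*, for a rubber-like protein, had 1, 2 and 1 counts. *Pcp*, the pupal cuticle protein gene, lies inside another gene and was listed at 0. The Tweedle family, cuticle proteins without the RR consensus, had 5 of 24 genes tested, and 1 of these, *TwdlP* with 29, 41 and 81 counts, varied (adjusted p = 2.9e-06). Its summed level was 16.8, 16.6 and 17.3 CPM in libraries 1, 2 and 3, and 4 of its genes lie inside others.

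Genes that build and modify chitin had a median ratio of the highest to the lowest library of 1.31, against 1.78 for the cuticle genes, a difference that was not tested. Of 13 listed genes, all were tested, 11 varied, and 1 differed at least 2-fold, against 39.4% and 5.64% of all features. Library 3 was the highest for 9 of 13, against 37.4% of all features, with a median log2 difference from library 1 of 0.35. The gene that differed 2-fold was *obst-E*, for a chitin-binding protein of the larval cuticle, with 1152, 1321 and 2606 counts. The chitin synthase gene *kkv* had 2496, 2242 and 2627 counts, a ratio of 1.18, and *Gasp*, another chitin-binding protein gene, had 4201, 4371 and 4440 counts with no detectable variation (adjusted p = 0.22).

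Enzymes that tan and pigment the cuticle were mostly highest in library 2, as was *Cpr49Ac*. Of 6 listed genes tested, all varied and 4 were highest there, against 39.4% and 30.7% of all features. *ple*, for tyrosine hydroxylase, had 225, 5844 and 235 counts, *Ddc*, for dopa decarboxylase, had 1200, 3782 and 1090, and *e*, for an enzyme that joins dopamine to beta-alanine, had 60, 1191 and 74. Among 12 listed factors of the ecdysone cascade, 9 were tested, 8 varied and 8 were highest in library 2, against 39.4% and 30.7% of all features. Of the 3 others *usp* and *br* lie inside other genes and *Hr3* shares 87.4% of its span with other genes, and they had at most 5 counts in a library. Over the 9 tested, the median log2 difference of library 2 from library 1 was 0.095. Their median ratio of the highest to the lowest library was 1.40. Among those with the largest ratios, the nuclear receptor genes *Eip78C* and *Hr4* had 82, 1070 and 58 counts and 37, 396 and 26 counts. *Blimp-1*, a repressor that times prepupal development, had 63, 165 and 49. These values stand beside those of *Cpr49Ac* in library 2, and their part in it was not tested. Among the lists shown in the plot of medians, those farthest from 0 in library 2 and in library 3 are different ones. The list of RR genes with other symbols, left out of the plot with 1 gene tested, lay at 1.37 and 1.62.

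**Figure D4:**
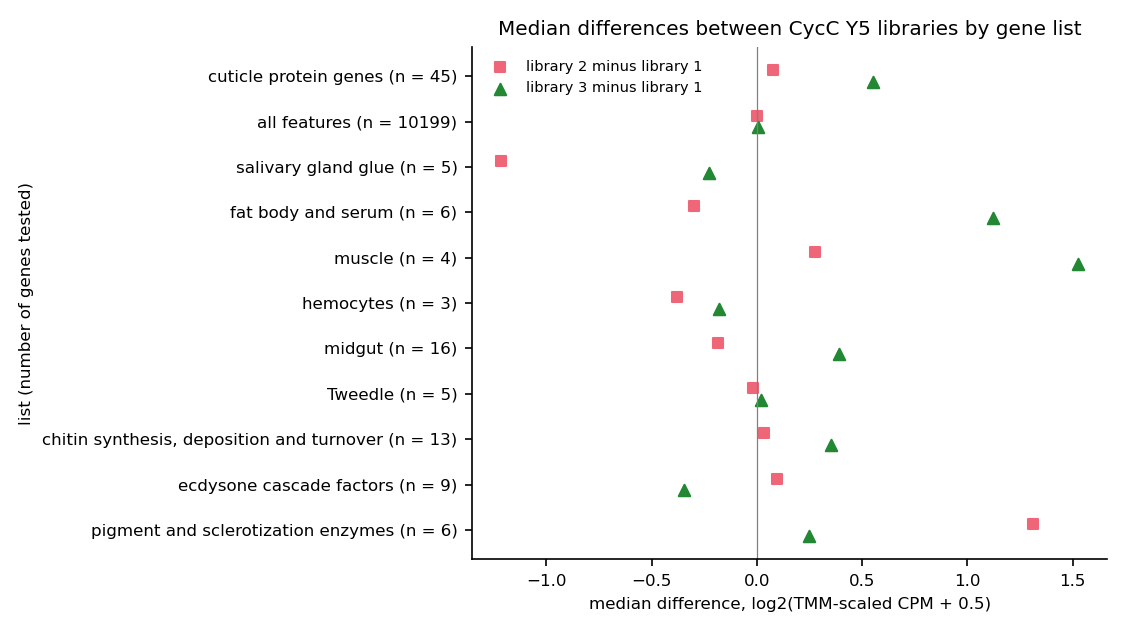
Median difference from library 1 of library 2 (red squares) and of library 3 (green triangles), as log2(TMM-scaled CPM + 0.5), for the cuticle protein genes, all features and other gene lists, with the number of genes tested in brackets. Neurons and RR genes with other symbols, with 2 and 1 genes tested, are left out. The cuticle genes lie at 0.078 and 0.55, the fat body and serum genes at -0.30 and 1.12, and the pigment and sclerotization enzymes at 1.31 and 0.25.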

How the data were processed

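Whole larvae of 1 genotype were sequenced in 3 libraries. The authors deposited raw read counts for genes and, in a second table, for transposon families. Per the labels, reads were aligned with STAR to dm6. The counting program, its strand setting and its treatment of reads with several matches are not given in the sources used here. The coordinates of all 94 members equal those of BDGP6.54, and symbols were found for 17865 of 17896 identifiers. In the transposon table, each column name was read 1 cell to the right, because the leading cell of each row has no name. Another 11 columns of values were not used.

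CPM values rest on the summed counts of both tables. As only one genotype was used, no contrast could be fitted with edgeR. Counts of each feature were compared across libraries by a chi-square test, given TMM library sizes, where they reached a sum of at least 30, with Benjamini-Hochberg adjustment over all of them and a threshold of 0.05. edgeR 4.0.16 under R 4.3.3 estimated the biological coefficients of variation, in a model of a mean alone. The test was checked on simulated counts. DESeq2 1.42.0 gave alternative size factors and dispersions. Alternatives covered scaling, filters, threshold, pseudocounts of 0.1 and 1 CPM, gene length and leaving out each library. SciPy 1.17.1, pandas 2.3.3, NumPy 2.4.6 and matplotlib 3.10.9 were run under Python 3.11.15.

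The members were taken by symbol alone, but the symbol rule and the lists were set with earlier results of these data known. Named members were the 10 highest per kb, the 10 with the largest ratio between libraries among those with a summed count of at least 100, and the *Lcp1* to *Lcp4*, *Lcp65A* and *Ccp84A* genes, and others were chosen after their values were seen. Of the listed genes up to 3 per list were named by their ratio, and *kkv*, *Gasp*, *elav*, *Syt1*, *nSyb*, *usp*, *br*, *Hr3* and *Sgs4* after their values were seen. *Lac2* was not matched by symbol. The span of each gene includes introns.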

Additional observations from a re-analysis of the deposited data

How the results depend on the processing

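No paired analysis was possible because only one genotype was sequenced in the samples used. Leaving out 1 library in turn, the number of cuticle genes that varied ranged from 18 to 34 and that of all features from 1661 to 3255, the number of members with a ratio of at least 2 ranged from 5 to 17, and the median biological coefficient of variation ranged from 0.153 to 0.276. Each was lowest without library 3, and the cause was not tested. The summed level ranged from 23538 to 25015 CPM. With total counts in place of TMM library sizes, 6055 features varied in place of 4021, where the median of all features is also offset between libraries. A total without the 20 most counted features, which is smaller by construction, gave a summed level of 31244 CPM. Coding length in place of the span moved 9 levels per kb by more than 1 SD. The numbers of members called in each pair of libraries and highest in each library stayed within 1.5 times under the other scalings, filters, pseudocounts and threshold. Members with a summed count under 30 were not tested, and no call on their differences is made.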

Other observations

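The following members were below the limit for testing and were picked after their values were seen. *Cpr30F* had 3, 5 and 13 counts and *Cpr47Eg* had 2, 3 and 11 counts in libraries 1, 2 and 3. *Cpr78Cb* (12, 3 and 9 counts), *Cpr92A* (11, 2 and 5 counts) and *Cpr72Ea* (9, 6 and 2 counts) had their highest count in library 1. *Cpr73D*, which overlaps *Obp73a* and *Ogdh*, had 7, 14 and 4 counts. These counts are given as values only.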
